A study of Mus musculus with 6 samples.

Results

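Serum response factor (SRF), its cofactors and the proteins that hold the cofactors back were followed as 9 genes in embryonic mouse cortex with and without the actin-binding protein CAP1. The genes were chosen by name from the 27179 genes of the deposited table: Srf itself, the coactivator genes Mrtfa, Mrtfb and Myocd, the ternary complex factor genes Elk1, Elk3 and Elk4, and the inhibitor genes Scai and Phactr1. All 9 were found, and 8 of them reached the mean of 1 CPM (read counts scaled to normalized library size) needed for testing. Myocd did not.

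RNA was sequenced from cerebral cortex of C57BL/6N embryos at E18.5. The Control group (libraries FF1, FF2 and FF4) carried Cap1 alleles flanked by recombination sites (Cap1 flx/flx) and no Cre. The CAP1-KO group (libraries FCRE3, FCRE4 and FCRE5) carried the same alleles together with a Nestin-CRE transgene, whose promoter is active in neural progenitors, so that blood vessels, microglia and meninges in the same dissection are not its main targets. Embryos with Nestin-CRE and unflanked Cap1 alleles were not among the groups, and effects of the transgene and of Cap1 loss cannot be told apart. The series asks how CAP1 acts on gene expression that depends on MRTF and SRF.

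SRF is a MADS-box transcription factor that binds a DNA element called the CArG box. It works with alternative partners. The myocardin-related transcription factors (MRTFs) bind actin monomers through RPEL motifs and are kept from the nucleus while so bound, which ties them to the state of the actin cytoskeleton. The ternary complex factors are ETS proteins that are phosphorylated by ERK kinases and sit beside SRF on many immediate early genes. In developing forebrain, SRF and the MRTFs are known for roles in neuronal migration and neurite growth.

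The Srf promoter is shown first, because Srf is both the factor and a gene with CArG boxes of its own. Sequences are from RefSeq on build GRCm38.p6, where 8 of the 9 genes had a window running from 250 bases before to 50 bases after a start site. Myocd had none. The 250 bases before the Srf start, on the minus strand at chr17:46556163-46556412, are printed 5′ to 3′ with the matches to the CArG box and to the ETS core CCGGAA in capitals.

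Srf: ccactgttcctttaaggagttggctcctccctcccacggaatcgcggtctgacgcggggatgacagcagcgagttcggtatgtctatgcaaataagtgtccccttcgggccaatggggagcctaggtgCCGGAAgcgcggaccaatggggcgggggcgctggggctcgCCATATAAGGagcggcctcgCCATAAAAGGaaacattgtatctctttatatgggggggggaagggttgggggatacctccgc

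The Srf window held 2 CArG boxes, with first bases at positions -82 and -62 from the start, and 1 ETS core at -122. A CArG box was found in 1.63% of all 32851 promoter windows, and 2 or more in 6 windows. None of the windows of Mrtfa, Mrtfb, Elk1, Elk3, Elk4, Scai or Phactr1 held one. The ETS core CCGGAA, searched on both strands, was in windows of Srf, Elk4 and Mrtfb, 3 of 8 genes (37.5%), against 29.7% of tested genes with a window. The matches are letters in a window and not measured binding. For comparison, the CArG boxes of 4 other called SRF target genes are printed with their flanks. The box of Cnn2 and Vcl, CCTTATAAGG, was also in the windows of Lima1 (log2 fold change 0.27) and Filip1l (0.40). Neither Lima1 nor Filip1l passed the test, so the printed boxes do not set called genes apart.

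Srf, distal box: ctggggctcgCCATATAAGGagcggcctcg
Srf, proximal box: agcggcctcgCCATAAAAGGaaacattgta
Cnn2: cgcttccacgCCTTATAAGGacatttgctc
Vcl: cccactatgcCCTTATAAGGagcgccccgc
Actg1: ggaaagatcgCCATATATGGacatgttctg
Myl9: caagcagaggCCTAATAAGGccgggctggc

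These boxes lie at chr17:46556235-46556244 and chr17:46556215-46556224 (Srf, minus strand), chr10:79988544-79988553 (Cnn2, plus strand), chr14:20929171-20929180 (Vcl, plus strand), chr11:120348576-120348585 (Actg1, minus strand) and chr2:156775303-156775312 (Myl9, plus strand).

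**Figure D1:**
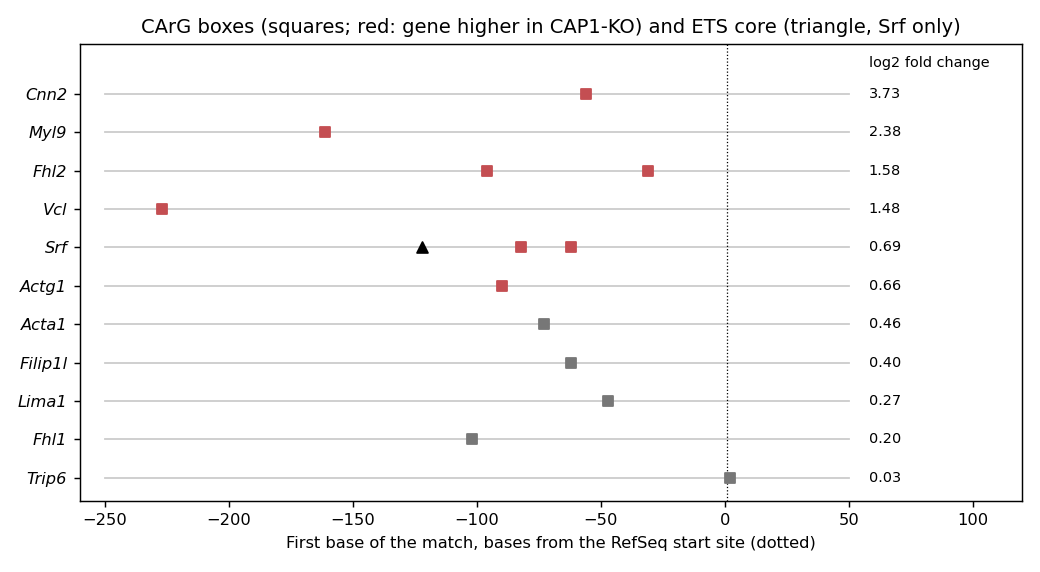
Position of CArG boxes in the promoter windows of tested genes from the MRTF-SRF target list, Srf included. The x axis gives the first base of each match in bases from the RefSeq start site, squares are CArG boxes (red where the gene rose in CAP1-KO), the triangle is the ETS core of Srf, and the log2 fold change stands at the right. Srf has 2 boxes within 1 window, while the 2 boxes of Fhl2 belong to windows of different start sites.

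Before the results, some facts of the libraries bear on them. Recovered depth was 32443864 to 36302598 reads per library. On the deposited normalized scale, 1 CPM corresponded to 31.2 to 37.3 reads, which did not follow depth alone. FF4 had the fewest reads and 33.1 reads per CPM, while FF1 had 31.2. Cap1 itself spanned 166 to 194 CPM over the Control libraries and 82.9 to 86.6 CPM over the CAP1-KO libraries, lower in every library labelled CAP1-KO. Embryo sex was not balanced: FF1 had 0.58 CPM of Xist and FF4 had 2.05 CPM, against 2296 CPM in FF2 and at least 2398 CPM in every CAP1-KO library. FF4 stood apart from FF1 and FF2. The summed level of 10 cortical projection neuron markers, all of which were detected, was 3035 CPM in FF1, 3111 CPM in FF2 and 2099 CPM in FF4, and lay between 2063 and 2282 CPM in CAP1-KO. The 12 striatal neuron markers summed to 672 CPM in FF1, 639 CPM in FF2 and 805 CPM in FF4, and lay between 743 and 834 CPM in CAP1-KO. Taken gene by gene on the log2(CPM + 1) scale, the difference was larger than these sums show. FF4 lay at a median of 1.09 from the mean of FF1 and FF2 for the striatal markers, and CAP1-KO at -0.11 from FF4. In bulk tissue, fewer cells of a type and less RNA per cell cannot be told apart.

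Srf was the only 1 of the 8 tested genes that passed the test, and it rose. Srf (gene number 20807, chr17:46548329-46556175, minus strand) was at 65.8, 68.4 and 59.4 CPM in the Control libraries FF1, FF2 and FF4. The CAP1-KO libraries FCRE3, FCRE4 and FCRE5 had 97.8, 111 and 104 CPM. Every CAP1-KO library lay above every Control library, as was the case for 11.1% of all tested genes. The gap between the groups was wider than the range within either. The means were 64.5 ± 4.67 and 105 ± 6.72 CPM (SD, n = 3 each), so the CAP1-KO mean was 162% of the Control mean. The log2 fold change on the log2(CPM + 1) scale was 0.69 (SE 0.07, 95% interval 0.52 to 0.85, limma, Benjamini-Hochberg adjusted p = 0.00515). It ranked 36 by p-value among 13885 tested genes, of which 0.562% were called higher. In the authors' deposited table Srf has 0.70 on the log2 scale with FDR 0.000938, and it is the only 1 of the 9 genes under 0.05 there, where 0.401% of genes are called higher and 0.412% lower. In 15 alternatives the Srf log2 fold change lay between 0.60 and 0.75, and the call was kept in 13. It was lost with the Xist level as a covariate (0.61, limma adjusted p = 0.123) and without FCRE5 (0.69, limma adjusted p = 0.0513). Against FF2 alone, the Control library whose Xist matched the CAP1-KO libraries, the log2 fold change was 0.60. That fit is among the alternatives that kept the call, with the lone library assumed to vary like the others. Within CAP1-KO, Srf was lowest in FCRE3 and highest in FCRE4, as were the summed meningeal fibroblast markers (59.3, 157 and 143 CPM in FCRE3, FCRE4 and FCRE5, against 56.1 to 61.7 CPM in Control, 8 of 10 tested, 0 called). The 10 microglia markers summed to 63.7 to 83.2 CPM in CAP1-KO and 42.2 to 57.7 CPM in Control (0 called). The 6 choroid plexus markers differed most, with sums of 0.80 to 4.32 CPM in Control and 98.5, 113 and 51.5 CPM in FCRE3, FCRE4 and FCRE5 (3 tested, 1 higher). Most of the CAP1-KO sum was Ttr, the called gene, with means of 80.5 ± 29.8 CPM in CAP1-KO and 0.15 ± 0.16 CPM in Control. The other tested markers, Clic6 and Otx2, averaged 3.10 and 2.30 CPM in CAP1-KO and 0.65 and 0.98 CPM in Control. The part of meningeal, microglial and choroid plexus cells in the Srf difference was not tested.

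**Figure D2:**
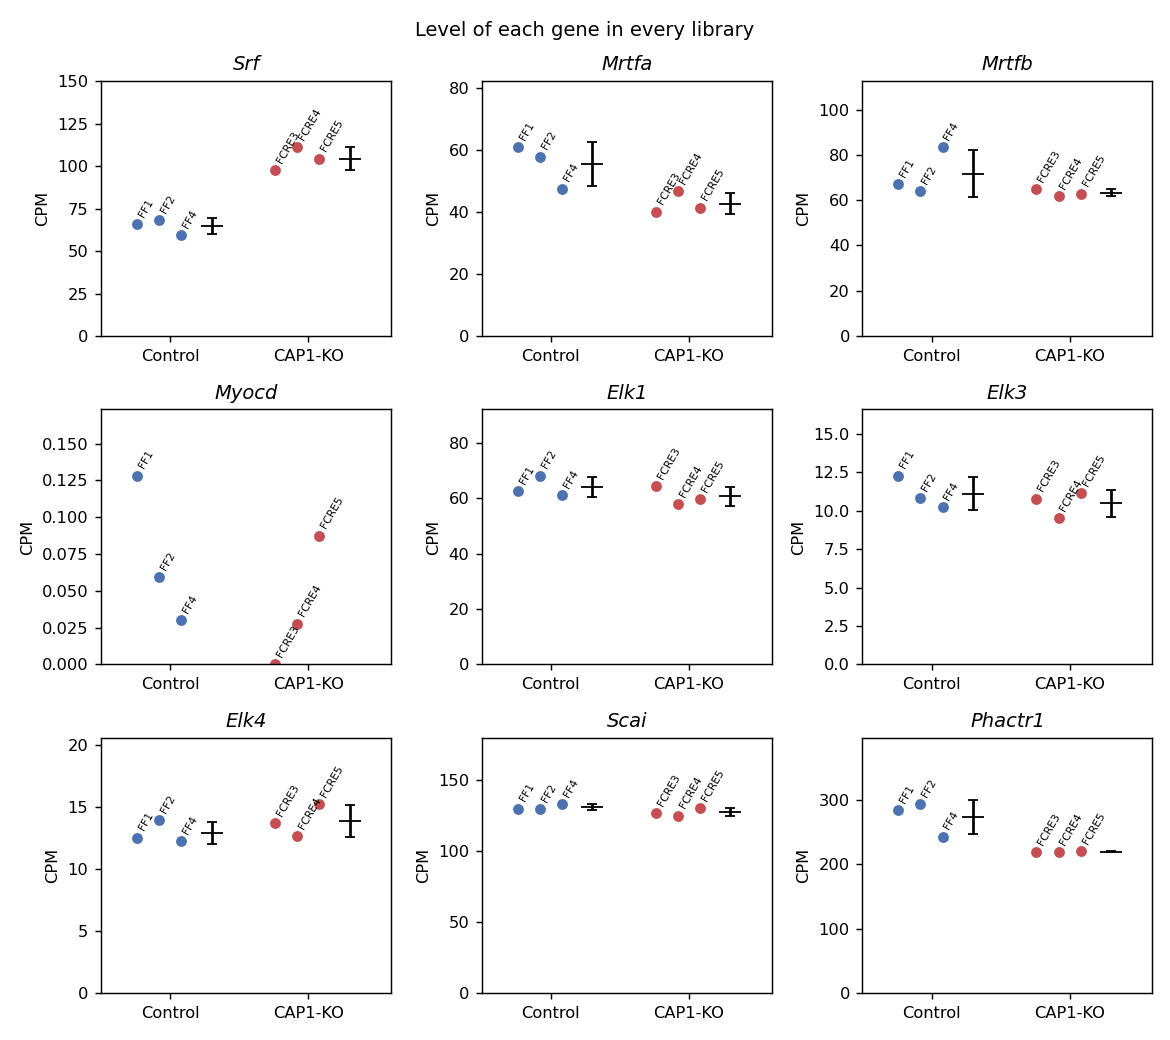
Level of each of the 9 genes in every library, in CPM on axes that start at 0. Points are libraries, blue for Control and red for CAP1-KO, and black bars are the group mean ± SD (not drawn for Myocd, which rests on 11 reads in all). Srf is the panel where the groups stand furthest apart, and FF4 lies apart from FF1 and FF2 for Mrtfa, Mrtfb and Phactr1.

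Mrtfa had lower values in CAP1-KO but did not pass the test. Mrtfa (gene number 223701, chr15:81012281-81190757, minus strand) was at 60.8, 57.8 and 47.5 CPM in Control (FF1, FF2, FF4) and at 40.0, 46.6 and 41.4 CPM in CAP1-KO (FCRE3, FCRE4, FCRE5). The groups did not overlap, by a margin of less than 1 CPM between FF4 and FCRE4, and 14.6% of all tested genes were separated in that direction. The means were 55.4 ± 7.00 and 42.7 ± 3.46 CPM (SD, n = 3 each), with a log2 fold change of -0.36 (SE 0.10, 95% interval -0.60 to -0.13, limma adjusted p = 0.111). Without FF4 the value was -0.47 and the adjusted p was 0.00166 (limma), in a fit that called 28.2% of all genes. FF4 lay -0.31 from the mean of FF1 and FF2 for Mrtfa, where the cortical neuron markers lay at a median of -0.56, and the part of cell composition in the Mrtfa difference was not tested. The authors' deposited table gives -0.38 with an FDR of 0.118.

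Mrtfb, its paralog, overlapped between the groups. Mrtfb (gene number 239719, chr16:13256481-13417529, plus strand) was at 67.2, 64.1 and 83.4 CPM in Control (FF1, FF2, FF4) and at 64.9, 61.9 and 62.8 CPM in CAP1-KO (FCRE3, FCRE4, FCRE5). FF4 was the high library, the reverse of its place for Mrtfa, and the other 5 libraries spanned 61.9 to 67.2 CPM. The log2 fold change was -0.17 (95% interval -0.39 to 0.05, limma adjusted p = 0.326), and -0.05 without FF4. Corrected for exon length, Mrtfa made up 62.3% of the summed Mrtfa and Mrtfb level in FF1, 62.2% in FF2 and 51.0% in FF4, and 53.0% in FCRE3, 57.9% in FCRE4 and 54.6% in FCRE5. The share thus varied more within Control than between the groups (58.5 ± 6.52% and 55.2 ± 2.51%, SD, n = 3 each, exact permutation p = 0.4, two-sided, adjusted p = 0.4 over 3 ratios).

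Myocd, the founding myocardin gene of cardiac and smooth muscle, was at the edge of detection. It had 4, 2 and 1 reads in FF1, FF2 and FF4, and 0, 1 and 3 reads in FCRE3, FCRE4 and FCRE5. The sums were 7 reads in Control (95% exact Poisson interval 2.81 to 14.4) and 4 in CAP1-KO (1.09 to 10.2), a ratio of 0.52 after depth with an exact interval of 0.11 to 2.04, which covers counting error only. No difference was detectable at this depth. The 11 mural cell markers, genes of pericytes and vascular smooth muscle, summed to 167 to 180 CPM in Control and 164 to 188 CPM in CAP1-KO. Of the 10 tested, 1 was called, the smooth muscle gene Myh11, which rose (log2 fold change 1.92, limma adjusted p = 0.00127). Myh11 is also among the called MRTF-SRF targets described below, and 0.562% of all tested genes were called higher. The median log2 fold change of the 10 was 0.02.

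The ternary complex factor genes overlapped between the groups, and none passed the test. Elk1, on the X chromosome (gene number 13712, chrX:20933395-20950608, minus strand), was at 62.7, 68.2 and 61.2 CPM in Control (FF1, FF2, FF4) and at 64.4, 57.8 and 59.7 CPM in CAP1-KO (FCRE3, FCRE4, FCRE5). Its highest value was in FF2, the Control library with Xist. The log2 fold change was -0.08 (95% interval -0.22 to 0.07, limma adjusted p = 0.498), and -0.17 with the Xist level as a covariate (limma adjusted p = 0.351). The upper end of this interval, 0.07, lay below the lower end of the Srf interval, 0.52.

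Elk3, also called Net, which represses until ERK signalling converts it, was low and is enriched in endothelium. It was at 12.3, 10.8 and 10.2 CPM in Control (FF1, FF2, FF4) and at 10.8, 9.50 and 11.2 CPM in CAP1-KO (FCRE3, FCRE4, FCRE5) (gene number 13713, chr10:93247414-93311135, minus strand). The log2 fold change was -0.08 (95% interval -0.30 to 0.14, limma adjusted p = 0.669). The 12 endothelial markers summed to 255 to 275 CPM in Control and 206 to 239 CPM in CAP1-KO, and 2 of them fell, while 0.403% of all tested genes were called lower. What part this has in the level of Elk3 was not tested.

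Elk4, also called SAP-1, was likewise low and overlapping. It was at 12.5, 13.9 and 12.3 CPM in Control (FF1, FF2, FF4) and at 13.7, 12.7 and 15.2 CPM in CAP1-KO (FCRE3, FCRE4, FCRE5) (gene number 13714, chr1:132007607-132032612, plus strand). The log2 fold change was 0.09 (95% interval -0.11 to 0.30, limma adjusted p = 0.560). With 338 to 523 reads per library for Elk3 and Elk4, counting error alone gave a coefficient of variation between 4.49% and 5.26%, against 6.93% to 9.59% observed within groups.

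Among the inhibitor genes, Scai showed the least spread between Control libraries and Phactr1 had lower values in CAP1-KO without passing the test. Scai encodes a nuclear protein that binds MRTF and represses its activity on SRF targets. It was at 130, 129 and 133 CPM in Control (FF1, FF2, FF4) and at 127, 125 and 130 CPM in CAP1-KO (FCRE3, FCRE4, FCRE5) (gene number 320271, chr2:39066214-39190734, minus strand). The Control coefficient of variation of 1.52% was as small as counting error gives (1.53%). The log2 fold change was -0.04 (95% interval -0.14 to 0.06, limma adjusted p = 0.610), the narrowest interval of the 8 genes.

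Phactr1 encodes an RPEL protein that binds actin monomers and protein phosphatase 1, so that it shares its actin-binding motif with the MRTFs. Phactr1 (gene number 218194, chr13:42680623-43138526, plus strand) was at 284, 294 and 243 CPM in FF1, FF2 and FF4. The CAP1-KO libraries FCRE3, FCRE4 and FCRE5 had 219, 219 and 220.2 CPM. All CAP1-KO libraries lay below all Control libraries, as was the case for 14.6% of all tested genes. They lay within 2 CPM of each other, while FF4 lay nearer to CAP1-KO than to FF1 and FF2. The means were 274 ± 26.9 and 219 ± 0.82 CPM (SD, n = 3 each). The CAP1-KO mean was 80.1% of the Control mean, with a log2 fold change of -0.31 (SE 0.07, 95% interval -0.48 to -0.14, limma adjusted p = 0.0886). The authors' deposited table gives -0.32 with an FDR of 0.0749, also past no threshold of 0.05. Without FF4 the log2 fold change was -0.40 (limma adjusted p = 0.000296, 28.2% of all genes called), and against FF2 alone it was -0.42 (limma adjusted p = 0.00627, 13.2% of all genes called). The cortical projection neuron markers also differed between libraries: FF4 lay -0.25 from FF1 and FF2 for Phactr1 and at a median of -0.56 for those markers, and CAP1-KO lay -0.15 from FF4 for Phactr1 and at a median of 0.10 for the markers. The part of cell composition in the Phactr1 difference was not tested.

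**Figure D3:**
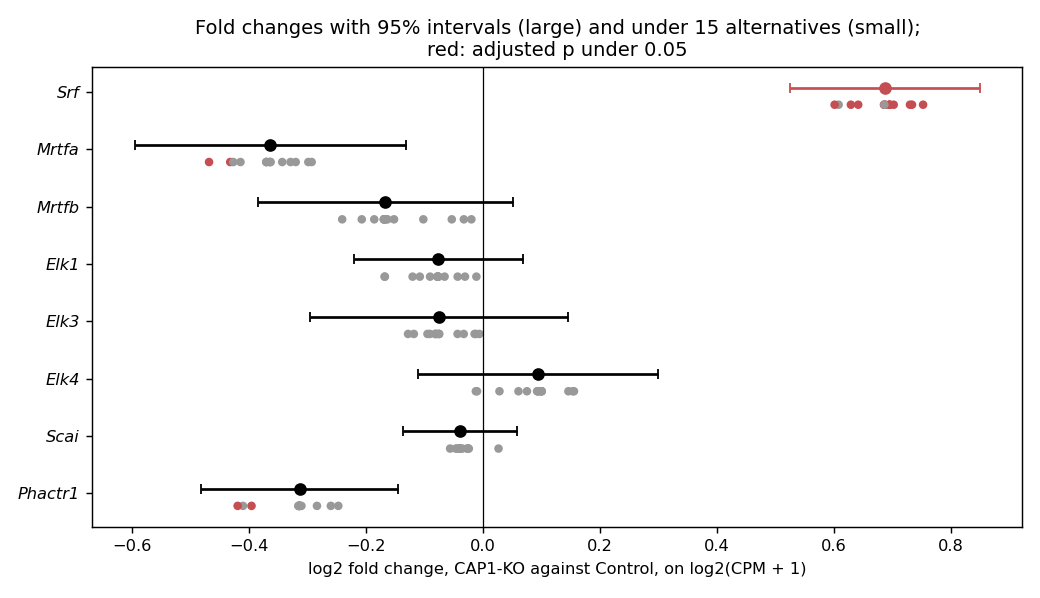
log2 fold change of the 8 tested genes, CAP1-KO against Control, on log2(CPM + 1). Large points are the fit over all 6 libraries with 95% intervals, small points are the 15 alternatives, and red marks an adjusted p under 0.05. Srf lies between 0.60 and 0.75 in all alternatives, and the only red points elsewhere are 2 of Mrtfa and 2 of Phactr1, each without FF4 or against FF2 alone.

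Of the 8 tested genes, 3 (Srf, Mrtfa and Phactr1) did not overlap between the groups, as was the case for 25.6% of all tested genes. The median log2 fold change of the 8 was -0.08 and that of all tested genes was -0.01. Called genes made up 1 of 8, against 0.965% of all tested genes. At an unadjusted p under 0.05 (limma) the same 3 genes passed, as did 23% of all tested genes. The labels call the libraries biological replicates without naming litters, and p-values measure the spread between these libraries.

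Levels of the 9 genes were compared with each other per kilobase of exon, the union of the exons of protein-coding transcripts in GENCODE's GRCm38 annotation. In Control the order was Phactr1 (43.7 ± 4.28 CPM per kb), Srf (24.7 ± 1.79), Elk1 (18.04 ± 1.04), Scai (12.1 ± 0.18), Mrtfa (11.3 ± 1.42), Mrtfb (7.96 ± 1.15), Elk3 (2.64 ± 0.25), Elk4 (2.45 ± 0.17) and Myocd (0.014 ± 0.0097), each as mean ± SD over n = 3. The libraries of neighbours in that order overlapped for Scai and Mrtfa and for Elk3 and Elk4, and not for the other pairs. In CAP1-KO, Srf (40.0 ± 2.57 CPM per kb) stood above Phactr1 (35.0 ± 0.13), and Elk4 (2.63 ± 0.25) above Elk3 (2.49 ± 0.21) with overlapping libraries. With the longest transcript as the length, Phactr1 (40.4 ± 0.15 CPM per kb) and Srf (40.0 ± 2.57) were level in CAP1-KO, so which of the pair ranks first there depends on the length used. That length also put Mrtfa above Scai and Elk4 above Elk3 in Control.

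**Figure D4:**
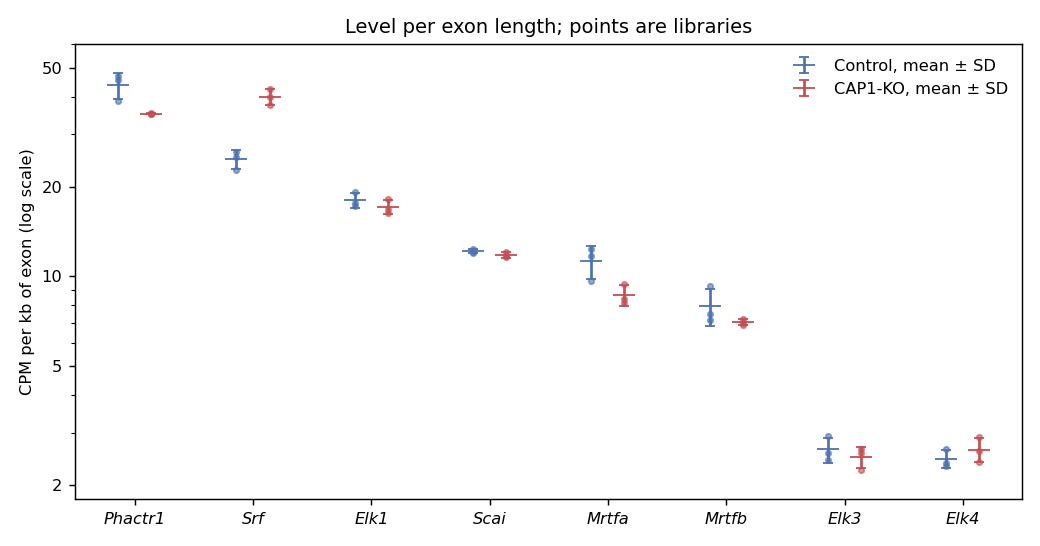
Level per kilobase of union exon, on a log scale, for the 8 tested genes in order of their Control mean. Points are libraries and bars are the mean ± SD, blue for Control and red for CAP1-KO. Srf moves from second place at 24.7 to 40.0 CPM per kb, above Phactr1 at 35.0, while Scai stays near 12.

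Srf was compared with the summed level of its partners. Per exon length, the ratio of Srf to the sum of Mrtfa and Mrtfb was 1.27 in FF1, 1.39 in FF2 and 1.20 in FF4, and 2.43 in FCRE3, 2.60 in FCRE4 and 2.59 in FCRE5. The ratio of Srf to the sum of Elk1, Elk3 and Elk4 was 1.10, 1.07 and 1.03 in the same Control libraries, and 1.603, 2.03 and 1.79 in the same CAP1-KO libraries. Both ratios were higher in every CAP1-KO library than in any Control library (exact permutation p = 0.1 each, two-sided, adjusted p = 0.15 over 3 ratios), and 0.1 is the smallest p that groups of 3 allow.

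The genes whose pattern over the 6 libraries was most like that of Srf included actin regulators. Likeness was the root mean square difference between centred log2(CPM + 1) values, and 9 of 13877 other genes came within 0.1. The nearest were P2rx7 (0.049), an ATP-gated channel, Arpc5 (0.072), a subunit of the Arp2/3 complex, the uncharacterised 4930429B21Rik (0.076), Cd53 (0.084), a leukocyte tetraspanin, and Dstn (0.087), the actin depolymerising factor destrin. The Control and CAP1-KO means of Arpc5 were 208 ± 6.75 and 321 ± 6.40 CPM, and those of Dstn 201 ± 4.19 and 342 ± 14.5 CPM (SD, n = 3 each). The other 3 are low genes, between 1.18 and 4.49 CPM in either group mean. A measure over 6 libraries in 2 groups mostly reads the difference between the groups.

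Of 40 listed MRTF-SRF targets, Srf among them, 37 were tested, 22 rose and 0 fell (limma), with a median log2 fold change of 0.66 against -0.01 for all genes. In the same fit, 0.562% of all tested genes were called higher and 0.403% lower. The largest were Acta2, smooth muscle actin (4.83, from 0.80 ± 0.56 to 49.6 ± 13.7 CPM), Cnn2, a calponin (3.73, from 8.42 ± 1.27 to 123 ± 11.2 CPM), Tagln, transgelin (3.36, from 0.89 ± 0.56 to 18.4 ± 5.28 CPM), and Actg2, enteric smooth muscle actin (2.41, from 0.030 ± 0.030 to 4.49 ± 0.48 CPM). Reads of near-identical actin genes may be divided unevenly, and the counting rule is not given in the sources used here. Acta2 and Tagln also mark vascular smooth muscle. Acta2 was at 35.7, 63.2 and 50.1 CPM in FCRE3, FCRE4 and FCRE5, the order of the meningeal sums, while the mural cell sums overlapped between the groups (167 to 180 and 164 to 188 CPM), and the part of these cells was not tested. The summed level of the 40 genes lay between 5901 and 6217 CPM in Control and between 10441 and 11056 CPM in CAP1-KO. Over the alternatives, 16 to 28 of these genes were called, and without FF4 25 rose and 3 fell, where 28.2% of all genes were called. The list was chosen knowing earlier results of these libraries, so its count is a description.

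A CArG box within the promoter window was found in 12 of the 31 listed targets that had one (38.7%), against 1.57% of tested genes. It was found in 6 of 17 listed targets that rose and in 5 of 13 that did not pass, so within the list it did not mark the genes that rose. Over all genes, it was found in 17 of 58 that rose (29.3%) and 0 of 36 that fell. Trip6, Lima1, Fhl1, Filip1l and Acta1 had a box and log2 fold changes between 0.03 and 0.46 that did not pass.

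A further list mixed targets of the ternary complex factors with immediate early genes. Of its 20 genes, 16 were tested, 1 rose and 0 fell (limma), with a median of -0.21. In the same fit, 0.562% of all tested genes were called higher and 0.403% lower. The gene that rose was Npas4, an activity-induced transcription factor, at 6.57, 5.95 and 13.5 CPM in FF1, FF2 and FF4 and at 34.8, 33.6 and 30.8 CPM in FCRE3, FCRE4 and FCRE5. The groups did not overlap, and 11.1% of all tested genes were separated in that direction. The Npas4 call (1.90, limma adjusted p = 0.0182) was lost with the Xist covariate and without any of FF1, FF2, FCRE3 or FCRE5. Egr1, a classical target, had a value of -0.44 (10.4 ± 1.13 and 7.42 ± 1.27 CPM, limma adjusted p = 0.113). Without FF4, 2 of these genes rose and 6 fell, in the fit that called 28.2% of all genes.

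**Figure D5:**
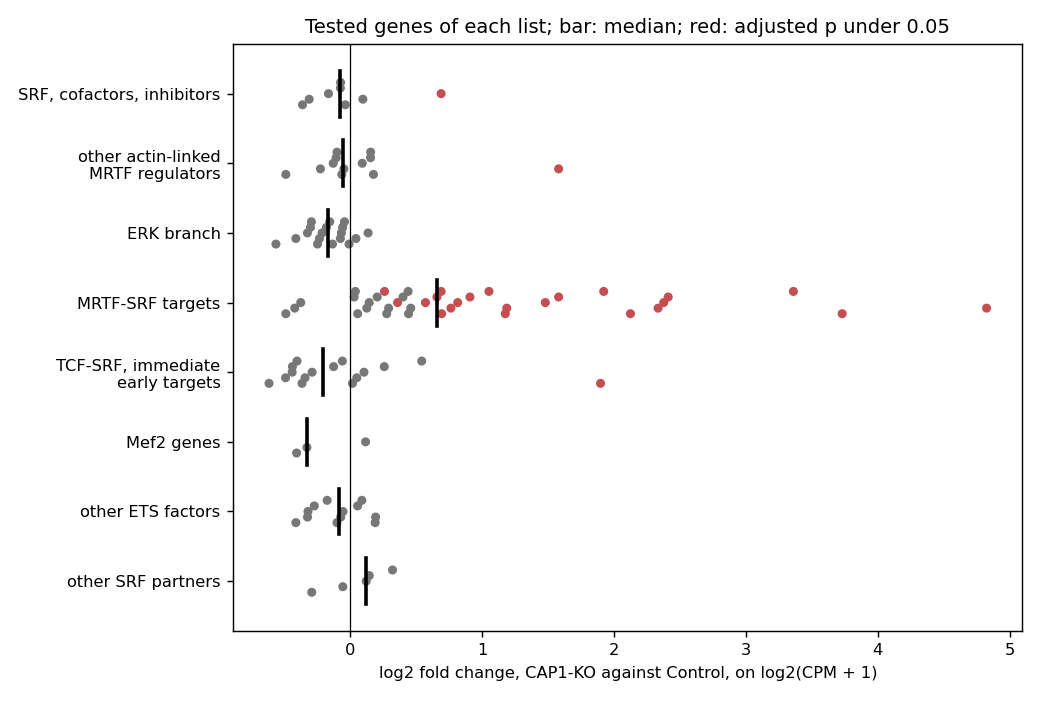
log2 fold change of the tested genes of 8 lists, CAP1-KO against Control. Points are genes, red where the adjusted p was under 0.05, and black bars are list medians. The MRTF-SRF targets stretch to 4.83 with a median of 0.66, while the ERK branch holds no called gene and the remaining lists hold at most 1, in the fit over all 6 libraries.

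The genes that feed into SRF held 1 called gene in the fit over all 6 libraries. Of 13 other actin-linked regulators of MRTF, 12 were tested and 1 rose, while 0.562% of all tested genes were called higher. The gene that rose was Fhl2, a LIM-domain protein that binds MRTF and SRF and is itself an SRF target. Fhl2 measured 10.6, 10.99 and 9.55 CPM in FF1, FF2 and FF4, and 31.2, 34.7 and 33.1 CPM in FCRE3, FCRE4 and FCRE5 (log2 fold change 1.58, limma adjusted p = 0.000103). Its CAP1-KO libraries were all far above Control, and 11.1% of all tested genes were separated in that direction. The other RPEL genes were Phactr2 (0.17, limma adjusted p = 0.248), Phactr3 (-0.23, limma adjusted p = 0.0886) and Phactr4 (-0.10, limma adjusted p = 0.670). Mical2, an enzyme that oxidises nuclear actin and so frees MRTF, had a value of -0.49 (113 ± 19.8 and 79.3 ± 7.57 CPM, limma adjusted p = 0.107). Xpo6, which exports actin from the nucleus, and Ipo9, which imports it, had values of -0.13 and -0.07. Without FF4, where 28.2% of all genes were called, 1 gene of this list rose and 5 fell.

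None of 18 genes of the ERK branch, the kinase cascade that acts on the ternary complex factors, passed the test by limma, with a median log2 fold change of -0.17. The count of 0 was also given by limma-voom on recovered reads, but not without FF4, when 1 gene rose and 9 fell in the fit that called 28.2% of all genes. Against FF2 alone 5 genes fell, with 13.2% of all genes called. In this branch 16 of 18 genes had a negative log2 fold change, while 6709 of all 13885 tested genes had a positive one. Of the 18, 6 were separated downward, against 14.6% of all genes. FF4 lay at a median of -0.15 from FF1 and FF2 for these genes, and CAP1-KO at -0.06 from FF4. For all tested genes these medians were -0.03 and 0.002. The part of cell composition was not tested.

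The relatives of SRF and of the ternary complex factors did not pass either. SRF shares the MADS domain with the Mef2 genes, of which 3 of 4 were tested. Mef2c measured 802 CPM in FF1, 849 CPM in FF2 and 645 CPM in FF4, and 567, 621 and 627 CPM in the CAP1-KO libraries (-0.33, limma adjusted p = 0.132), again with FF4 as the low Control library. Mef2a had a value of 0.11 (limma adjusted p = 0.201). Of 13 other ETS genes 12 were tested, and the median was -0.09, with Elf2 at -0.07 and Gabpa at 0.05. Among 8 other partners of SRF or relatives, 5 were tested, with Csrp2 at 0.14 and Tead1 at 0.32 (limma adjusted p = 0.0801). Without FF4, 2 Mef2 genes and 4 other ETS genes fell, and 1 partner rose and 1 fell, against 28.2% of all genes called.

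Neighbouring genes bear on how far single values can be read. In the GENCODE annotation, Elk1 shares 8887 bases with Uxt on the same strand, Elk3 shares 19658 bases with Cdk17 on the opposite strand, and all 7847 bases of Srf lie under Gm26904, a noncoding gene on the opposite strand. The libraries were strand-specific per the labels' protocols, and whether the counting used the strand is not given in the sources used here. The Control and CAP1-KO means of Cdk17 were 137 and 128 CPM, and those of Uxt 2.68 and 2.92 CPM.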

How the data were processed

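RNA sequencing values of 6 cortex libraries, 3 Control and 3 CAP1-KO, were used. Each library column holds log2 normalized counts as deposited, per the file headers, beside the authors' own comparison of the groups (a log2 fold change and mean, an F statistic as a score, and p-values before and after FDR adjustment). Per the submitters' processing notes, the tools were STAR and edgeR, with GRCm38 and mm10 as builds. The sources used here give no version, counter, annotation or filter. Library columns were grouped by the genotype in their names.

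The shared offset (0.0584 CPM) was removed from the antilogs, which left values that were whole reads within 0.01 for 100% of entries. The design foresaw a count test for deposited counts only, so limma 3.58.1 (R 4.3.3, with trend) was run on log2(CPM + 1), which understates changes of low genes, for the 13885 genes whose mean reached 1 CPM, with Benjamini-Hochberg adjustment and a threshold of 0.05. On simulated reads for CAP1-KO against Control over these 13885 genes, 71% of 100 genes changed 1.5-fold and 88% of 100 changed 2-fold were recovered, and 9 unchanged genes were called. No replicate pair agreed within sampling noise (chi-square per degree of freedom at least 5.54).

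The genes, lists and alternatives were chosen with earlier results of these data known. Named genes were all 9 genes, up to 4 called members of each list (largest change first) or else the 2 with the highest mean CPM, and the 5 genes most like Srf. Some results are not reported here, among them the named genes of the ERK branch and 2 further lists. Other genes (Egr1, Phactr2, Phactr3, Phactr4, Mical2, Xpo6, Ipo9, Myh11, Ttr, Clic6, Otx2, genes with CArG boxes and overlapping genes) were named after their values were seen. Other marker lists are given in the closing section. Symbols missing for 1169 genes were filled from RefSeq for 456. Protein sequences were not used here. Ratios were tested with scipy 1.17.1.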

Additional observations from a re-analysis of the deposited data

How the results depend on the processing

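No library group was large enough for a search for single outlying libraries. Of the 9 genes, 1 was called under 11 of 15 alternatives; 0 were called with the Xist level as a covariate, 3 against FF2 alone, and between 0 and 3 when each library was left out. All genes called numbered 134, and 88 once low genes were kept in, 26 under the Xist covariate, 1835 against FF2 alone, and between 36 and 3914 with each library left out (lowest without FCRE5, highest without FF4). Elk4 turned to -0.012 with the Xist covariate and to -0.010 against FF2 alone, and Scai to 0.027 when scaled to total reads. That scaling moved the median log2 fold change of all tested genes from -0.006 to 0.056. The cause of the sign changes was not tested. No paired analysis was possible because library columns carry numbers other than the labels' replicate numbers, and only FF4 and FCRE4 share one. Counting intervals cover counting error only. Depth left no detectable difference for Myocd. For Scai, counting error was as large as the spread between Control libraries (1.53% and 1.52%), while in CAP1-KO it was 1.48% against 2.18%. For Elk3 and Elk4 the spread within groups exceeded counting error.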

Other observations

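Median log2 fold changes of the marker lists are given as values. Microglia markers had a median log2 fold change of 0.56 (10 tested, 0 called), meningeal fibroblast markers 0.93 (8 tested, 0 called) and choroid plexus markers 1.36 (3 tested, 1 higher). Interneuron markers had a median of 0.36 (8 tested, 0 called), astrocyte markers 0.32 (5 tested, 0 called), oligodendrocyte precursor markers -0.29 (5 tested, 0 called) and progenitor and radial glia markers 0.02 (8 tested, 0 called). The median of the striatal neuron markers was 0.50 (12 tested, 1 lower) and mural cell markers 0.02 (10 tested, 1 higher). All counts are by limma over all tested genes, of which 0.562% were called higher and 0.403% lower.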
